A study of Mus musculus with 18 samples.

Results

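Interferon response genes were followed in the mouse cochlea after conditional deletion of Fst (Fst cKO). The set holds 41 genes, chosen by symbol from a list of known interferon-induced genes, and all 41 were found among the 46583 genes of the deposited table. The choice was made with earlier results of these data known. Shares of members set beside shares of all genes are therefore a description. RNA came from untreated mice aged 4 weeks. The Fst cKO groups are base, middle and apex of the cochlea, and each is set against the same region of control mice, whose genotype the labels give as WT. Fst encodes follistatin, a secreted antagonist of activins. The Cre driver, the strain and the number of animals per pool are not given in the sources used here. For each region and genotype the tissue was pooled into 1 RNA sample, which was split into 3 technical libraries, giving 6 groups and 18 libraries. A difference between groups is therefore a difference between 1 pool and 1 pool, and every p-value on libraries measures technical spread only.

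Interferons are secreted signals that cells release when sensors detect foreign or misplaced nucleic acid. Type I interferon binds the receptor of Ifnar1 and Ifnar2, and signalling from it leads Stat2 and Irf9 into the complex ISGF3. ISGF3 binds the interferon-stimulated response element (ISRE) in the promoters of target genes, while type II interferon acts mainly at a GAS element. Target genes block viral entry and replication, degrade RNA, present antigen and feed back on the pathway, and many are also transcribed at a low level without infection.

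Promoters of some members that the results turn on, each with a match, are shown to let the response element be seen. The core GAAANNGAAA, read on either strand, was present in the 250 bases before the start of 16 of the 30 members that have an entry in the RefSeq promoter table (GRCm38.p6), or 53.3%, against 936 of 27025 genes, or 3.46%. The GAS letters TTCNNNGAA, which read the same on both strands, were present in 6 of 30 members (20%), against 8.13% of all genes. In Bst2 a GAS match overlaps an ISRE match. Irf7, Ifi44 and Oasl1, which the results also turn on, have an entry but hold no ISRE core in the 250 bases. The members with no entry are Gbp4, Iigp1, Usp18, Oas2, Parp14, Dhx58, Zbp1, Rtp4, Mx1, Mx2 and Ifi27. Each sequence below is the 170 bases before the RefSeq start, 5′ to 3′ on the strand of the gene, with every base of a core match in capitals. A core on the opposite strand reads TTTCNNTTTC.
Rsad2 (chr12:26456453-26456622, minus strand): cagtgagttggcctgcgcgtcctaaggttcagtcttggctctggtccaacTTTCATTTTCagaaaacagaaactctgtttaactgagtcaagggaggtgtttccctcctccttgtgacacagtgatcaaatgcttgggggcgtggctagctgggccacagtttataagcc
Ifit3 (chr19:34583359-34583528, plus strand): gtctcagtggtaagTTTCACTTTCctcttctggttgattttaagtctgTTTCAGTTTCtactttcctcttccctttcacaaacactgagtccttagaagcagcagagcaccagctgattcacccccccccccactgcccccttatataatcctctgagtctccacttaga
Oas3 (chr5:120777660-120777829, minus strand): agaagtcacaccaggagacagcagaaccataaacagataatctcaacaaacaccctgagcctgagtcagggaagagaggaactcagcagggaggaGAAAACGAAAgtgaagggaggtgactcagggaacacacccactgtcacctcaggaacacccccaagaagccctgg
Isg15 (chr4:156200819-156200988, minus strand): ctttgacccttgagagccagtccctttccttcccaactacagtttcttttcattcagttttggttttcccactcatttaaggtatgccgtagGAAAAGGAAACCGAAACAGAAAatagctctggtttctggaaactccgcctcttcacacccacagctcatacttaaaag
Gbp2b (chr3:142594677-142594846, plus strand): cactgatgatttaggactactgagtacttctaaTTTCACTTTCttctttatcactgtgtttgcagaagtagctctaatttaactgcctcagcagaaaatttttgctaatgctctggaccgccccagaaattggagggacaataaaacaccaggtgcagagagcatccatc
Rsad2, Oas3 and Gbp2b carry 1 match in the window, Ifit3 carries 2 and Isg15 carries 3 that overlap. A match is a description of letters, not evidence that a factor binds there.

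Library totals ran from 24446765 to 33732709 counts, so that a floor of 3 counts, the limit a count of 0 allows, equals 0.0889 to 0.123 CPM, counts scaled to the library total. The targeted gene Fst averaged 9.84 ± 0.395 CPM in the Fst cKO apex and 24.4 ± 0.882 in the control apex (SD, n = 3 libraries each). In the middle it averaged 2.99 ± 0.348 CPM in Fst cKO and 6.38 ± 0.573 in control, and in the base 1.86 ± 0.122 in Fst cKO and 2.17 ± 0.211 in control. Fst passed the test as lower in the apex (log2 change -1.29) and the middle (-1.10) but not in the base (-0.22, edgeR adjusted p = 0.308). Xist, expressed from the inactive X chromosome of female cells, lay between 58.9 and 87.5 CPM in the Fst cKO groups against 296.9 to 370.8 CPM in the control groups. The Y-linked Ddx3y lay between 78.9 and 84.8 CPM in Fst cKO and between 44.3 and 55.2 CPM in control. Genotype and the sex mix of the pools therefore cannot be told apart. Genes of hair cells and of cochlear supporting cells and lateral wall were detected, all 9 listed of each.

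All 41 members passed the filter on low counts. Gbp2b was absent from every control library, a fact used in setting it apart, and it is described separately, so counts below refer to the other 40. Per length, Ifi27 was the most abundant member, with a mean FPKM of 335 over the libraries. Bst2 followed with 61.0, Ifi35 with 31.8, Ifit3 with 30.1 and Irgm1 with 28.2, and Irf9 had 19.7. Oas3 stood lowest of the 40 at 0.356 FPKM. The summed level of the 40 members was 961 to 965 CPM in Fst cKO base and 769.7 to 782 CPM in control base. It was 866 to 877 CPM in Fst cKO middle and 955 to 957 CPM in control middle, and 889 to 897 CPM in Fst cKO apex and 865 to 868 CPM in control apex. The sum was thus higher in Fst cKO in base and apex and lower in the middle, with no overlap between libraries in any region. Ifi27 alone supplied 19.7% to 25.2% of the sum. In bulk tissue, fewer cells of a type and less RNA per cell cannot be told apart, and that holds for every level given here.

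**Figure D1:**
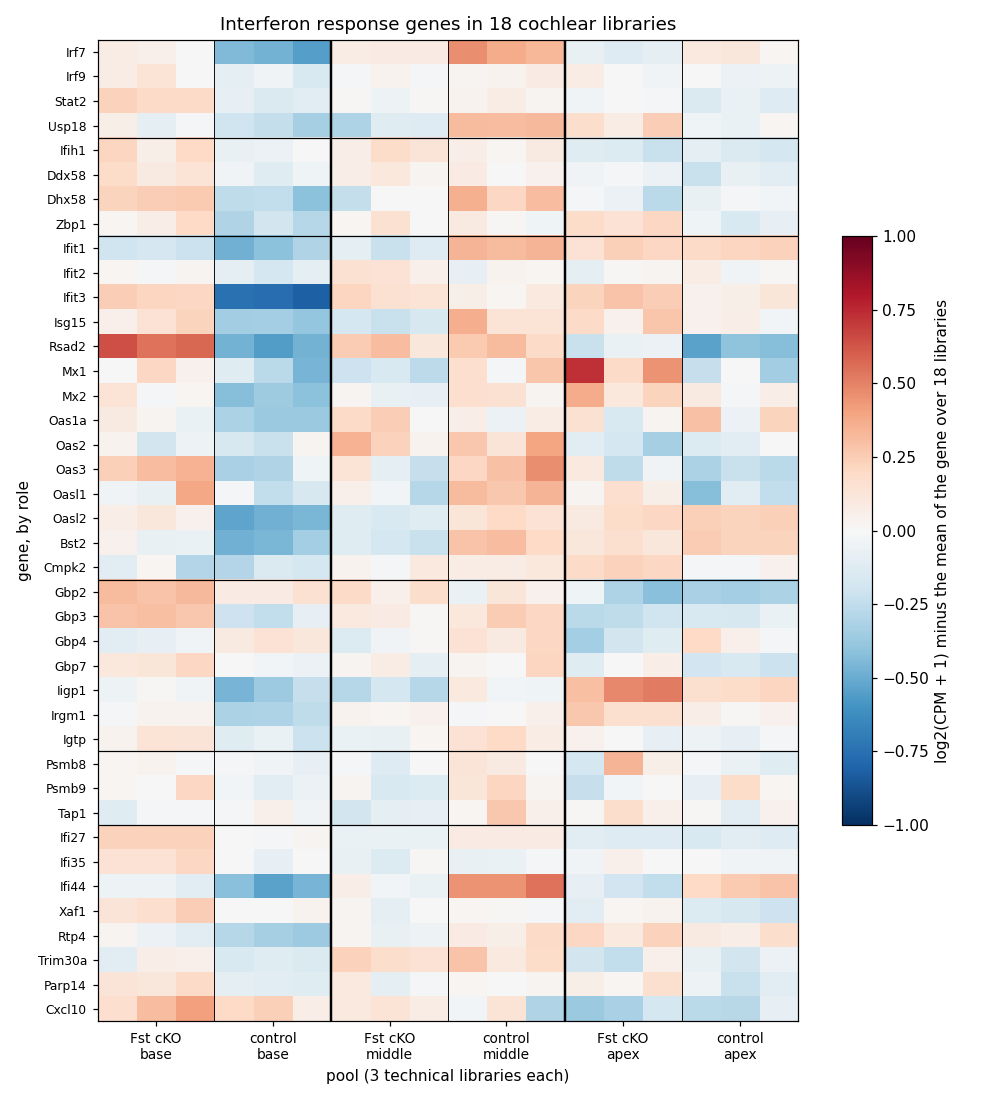
Level of 40 interferon response genes (rows, by role) in 18 libraries (columns, 3 technical libraries per pool), as log2(CPM + 1) minus the mean of the gene over all libraries. Red is above and blue below that mean. By the mean of a pool, control base is the lowest for 23 of the 40 genes and control middle the highest for 15.

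In the base, interferon response genes were higher in Fst cKO than in control. Of the 40 members, 31 rose and 1 fell at an adjusted p under 0.05 (77.5% and 2.5%), where 16.5% and 19.6% of all 17901 genes tested rose and fell. The median log2 change of the members was 0.25, against -0.02 over all genes. Changes were small: 2 members, Rsad2 and Ifit3, also reached 2-fold, which is 5.0% of members against 2.51% of all genes called higher by the same rule and 3.03% in either direction.

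Rsad2 encodes viperin, an enzyme that makes a chain-terminating ribonucleotide. It stood at 17.0, 15.8 and 16.2 CPM in the Fst cKO base libraries and at 7.29, 6.83 and 7.28 CPM in the control base libraries. Every Fst cKO library was above every control library. The log2 change was 1.19 ± 0.071 (SE, edgeR adjusted p = 2.09e-16). Ifit3 stood at 54.8, 53.4 and 53.1 CPM in Fst cKO base and 27.0, 26.7 and 25.7 CPM in control base. Its groups were apart by more than the spread of their libraries, with a log2 change of 1.01 ± 0.038 (edgeR adjusted p = 5.41e-23). Leaving out control base replicate 3 or Fst cKO base replicate 1 put Ifit3 just under 2-fold, at 0.992 and 0.996. Of the 50-base words in Ifit3 transcripts, 51.2% also occur in Ifit3b, so counts may be split between the pair. Ifit3b changed by 0.91 ± 0.071 in the base.

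All 4 members of the signalling group rose in the base. Irf7, the transcription factor that amplifies type I interferon, stood at 29.7, 29.3 and 28.4 CPM in Fst cKO and at 20.5, 20.04 and 18.9 CPM in control, a change of 0.54 ± 0.046 (edgeR adjusted p = 1.18e-12). The groups did not overlap. Stat2 changed by 0.31, Usp18, a protease that removes Isg15 and dampens the receptor, by 0.26, and Irf9 by 0.15. All 4 sensors rose as well. Dhx58 (LGP2), which modulates the RNA helicase sensors, stood at 10.3, 10.5 and 10.6 CPM in Fst cKO and at 7.10, 7.16 and 6.30 CPM in control, with no overlap and a change of 0.59 ± 0.083. Zbp1, a sensor of Z-form nucleic acid, changed by 0.53, and the RNA sensors Ifih1 (MDA5) and Ddx58 (RIG-I) by 0.20 each.

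Of the 14 antiviral effectors, 11 rose in the base and 3 did not pass. Beside Rsad2 and Ifit3 the largest change was that of Oas3, one of the synthetases of 2′-5′ oligoadenylate that activates RNase L. Oas3 stood at 1.86, 2.0 and 2.08 CPM in Fst cKO base and at 0.932, 0.971 and 1.35 CPM in control base. All 3 Fst cKO libraries were higher, and the change was 0.88 ± 0.21 (edgeR adjusted p = 0.000823); without control base replicate 3 it was 1.04 and Oas3 was called. Isg15, a ubiquitin-like modifier, stood at 11.9, 12.7 and 13.5 CPM in Fst cKO and at 8.81, 8.84 and 8.51 CPM in control, a change of 0.53 ± 0.075. Bst2 (tetherin), which holds budding virus at the membrane, stood at 36.3, 33.3 and 33.5 CPM in Fst cKO and at 24.9, 25.4 and 27.6 CPM in control, a change of 0.40 ± 0.043. Isg15 and Bst2 were without overlap too. Oasl2 changed by 0.57, Mx1 by 0.57, Mx2, which is annotated as a polymorphic pseudogene, by 0.52 and Oas1a by 0.47. Of the transcript words of Oas1a, 57.6% are shared with Oas1g, which makes its count uncertain. Oasl1 (0.37 ± 0.20), Cmpk2, a mitochondrial nucleotide kinase gene (0.08), and Oas2 (0.07) did not pass.

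Among the 7 guanylate-binding (GBP) and immunity-related (IRG) GTPases, which attack membranes around intracellular microbes, 6 rose in the base and 1 fell. Gbp3 changed by 0.49, Iigp1 by 0.37, Irgm1 by 0.31, Igtp by 0.23, Gbp2 by 0.22 and Gbp7 by 0.17. Irgm1, the most abundant of them, stood at 44.1, 45.8 and 45.7 CPM in Fst cKO and at 35.7, 35.9 and 37.3 CPM in control, without overlap. Gbp4 fell, with 7.73, 7.89 and 8.16 CPM in Fst cKO and 9.0, 9.42 and 9.16 CPM in control (log2 change -0.22 ± 0.078, edgeR adjusted p = 0.0241). None of the 3 antigen processing genes passed in the base. Psmb8 and Psmb9, subunits of the immunoproteasome, changed by 0.06 and 0.17, and the peptide transporter gene Tap1 by -0.07. Of the 8 other induced genes, 6 rose, from Xaf1, whose product binds the apoptosis inhibitor XIAP, at 0.17 to Ifi44 at 0.47. Parp14, an ADP-ribosyltransferase gene, changed by 0.25, Rtp4 by 0.29 and Ifi35 by 0.19. Ifi27 stood at 226 to 227 CPM in Fst cKO base and 191 to 197 CPM in control base, a change of 0.22 ± 0.018. The chemokine gene Cxcl10 (0.18) and Trim30a (0.16) did not pass.

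**Figure D2:**
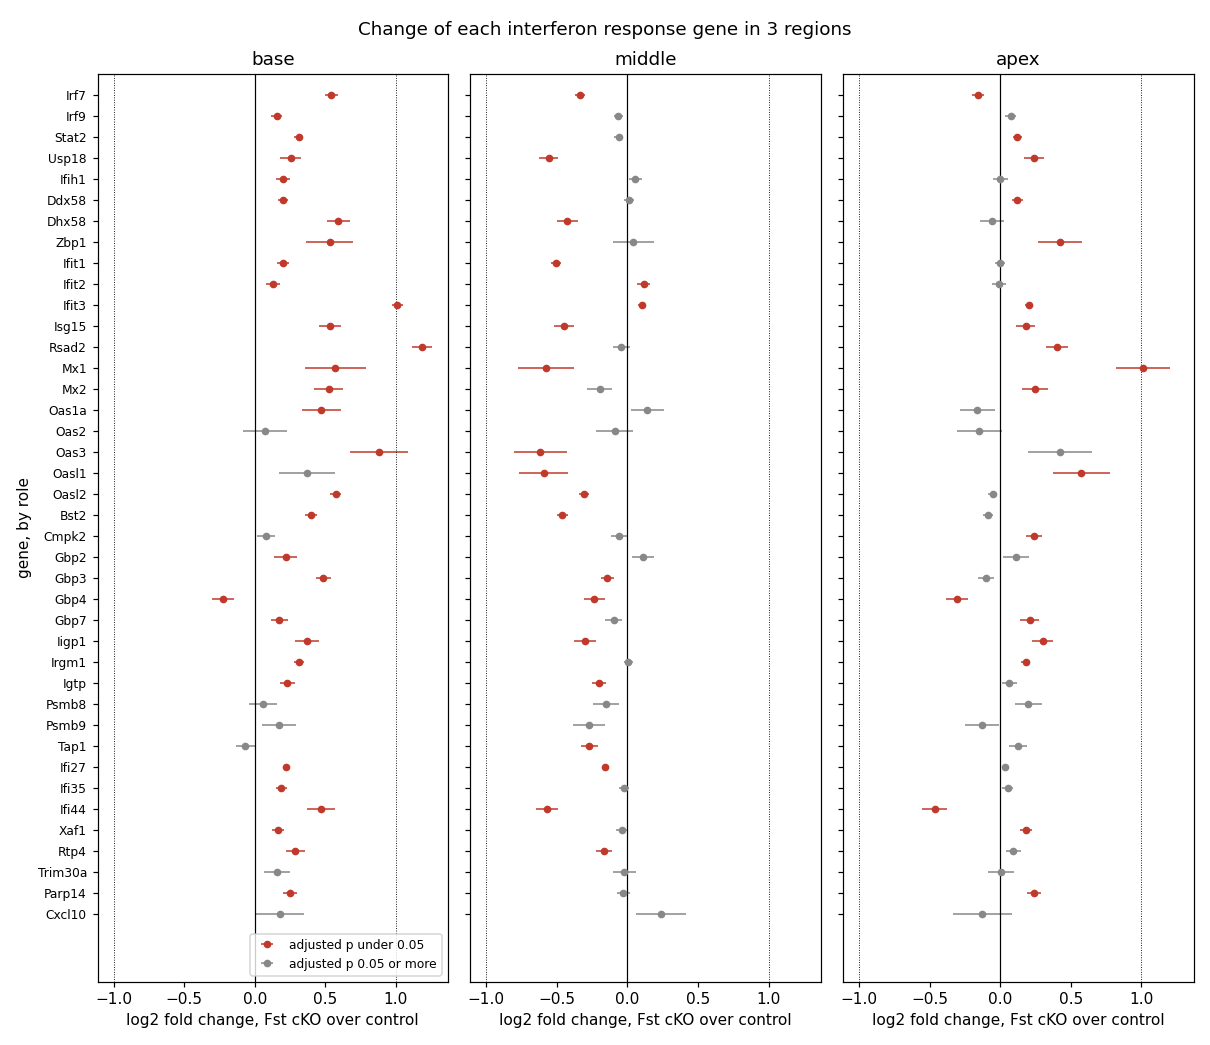
Log2 fold change of Fst cKO over control for each of 40 interferon response genes in base, middle and apex, with the standard error as a bar and dotted lines at a 2-fold change. In the base 31 genes passed as higher, in the middle 18 passed as lower, and in the apex 16 passed as higher and 3 as lower.

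In the middle the members went mostly the other way. Of 40, 18 fell and 2 rose at an adjusted p under 0.05 (45.0% and 5.0%), against 17.7% and 17.9% of all genes. None reached 2-fold in edgeR, DESeq2 or limma on FPKM, where 2.72% of all genes were called in edgeR. At an unadjusted p under 0.05 edgeR counted 23 members. The median log2 change was -0.15, and that over all genes was -0.00058.

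Irf7 and Usp18 fell, while Stat2 (-0.06) and Irf9 (-0.06) did not pass. Irf7 stood at 29.7, 29.9 and 29.9 CPM in Fst cKO middle and at 39.5, 36.8 and 35.9 CPM in control middle. Every Fst cKO library was lower, with a change of -0.34 ± 0.037 (edgeR adjusted p = 1.25e-09). Of the sensors only Dhx58 passed, with 7.21, 8.63 and 8.63 CPM in Fst cKO and 11.4, 10.2 and 11 CPM in control (-0.43 ± 0.075). Ddx58 changed by 0.01, Zbp1 by 0.04 and Ifih1 by 0.06.

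Antiviral effectors held both directions in the middle: 7 fell, 2 rose and 5 did not pass. Ifit1, which binds viral RNA caps, stood at 33.6, 30.8 and 32.8 CPM in Fst cKO and at 45.9, 45.2 and 45.9 CPM in control, a change of -0.51 ± 0.035 (edgeR adjusted p = 2.97e-14). Isg15 stood at 10.01, 9.67 and 10.1 CPM in Fst cKO and at 15.0, 12.7 and 12.7 CPM in control, a change of -0.45 ± 0.068. Bst2 stood at 32.3, 31.0 and 30.0 CPM in Fst cKO and at 43.0, 43.7 and 40.6 CPM in control, a change of -0.46 ± 0.037. None of these 3 genes had overlapping libraries. Oas3 (-0.62), Oasl1 (-0.59), Mx1 (-0.58) and Oasl2 (-0.31) also fell, while Ifit2 (0.12) and Ifit3 (0.10) rose slightly. Rsad2 changed by -0.04 ± 0.062, with 12.7, 13.2 and 11.5 CPM in Fst cKO and 12.8, 13.3 and 12.1 CPM in control. Its libraries overlapped.

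Of the GTPases, Iigp1 (-0.30), Gbp4 (-0.24), Igtp (-0.20) and Gbp3 (-0.14) fell in the middle, and Irgm1 changed by 0.01 ± 0.031. Tap1 fell by 0.27 on the log2 scale, and Psmb8 and Psmb9 did not pass. Ifi44 stood at 6.58, 6.11 and 5.93 CPM in Fst cKO and at 8.93, 8.89 and 9.56 CPM in control (-0.57 ± 0.077). All its Fst cKO libraries were lower. Ifi27 (-0.16) and Rtp4 (-0.17) fell with it.

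In the apex, 16 members rose and 3 fell (40% and 7.5%), against 21.8% and 18.8% of all genes. The median log2 change was 0.10, against 0.0047 over all genes. Only Mx1 reached 2-fold, 1 of 40 members or 2.5%, where 2.04% of all genes were called and 1.49% were called higher.

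Mx1 encodes a dynamin-like GTPase that traps viral nucleoprotein, though its protein was not measured and the strain of the pools is not given. It stood at 3.53, 2.11 and 2.74 CPM in Fst cKO apex and at 1.33, 1.74 and 1.15 CPM in control apex. The groups did not overlap, and the change was 1.01 ± 0.19 (edgeR adjusted p = 5.08e-05). It fell short of 2-fold without Fst cKO apex replicate 1 (0.81), control apex replicate 3 (0.89) or control apex replicate 1 (0.98), and with library totals in place of TMM factors (0.99). Rsad2 stood at 8.89, 9.96 and 10.03 CPM in Fst cKO and at 6.95, 7.69 and 7.55 CPM in control, a change of 0.40 ± 0.077. Oasl1 (0.57), Zbp1 (0.42), Mx2 (0.25), Cmpk2 (0.24), Ifit3 (0.20) and Isg15 (0.18) also rose. In all, 7 of the 14 antiviral effectors rose in the apex and none fell.

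Iigp1 stood at 10.5, 12 and 12.4 CPM in Fst cKO apex and at 9.43, 9.60 and 9.81 CPM in control apex, a change of 0.30 ± 0.072 without overlap. Irgm1 (0.18), Gbp7 (0.21), Usp18 (0.24), Stat2 (0.12), Ddx58 (0.12), Parp14 (0.24) and Xaf1 (0.18) rose too. The 3 that fell were Irf7, Gbp4 and Ifi44. Irf7 stood at 26.8, 25.7 and 26.5 CPM in Fst cKO and at 30.2, 30.7 and 28.7 CPM in control (-0.16 ± 0.042). Ifi44 stood at 5.84, 5.37 and 5.11 CPM in Fst cKO and at 7.34, 7.69 and 7.82 CPM in control (-0.46 ± 0.089). Both were below control in every library. None of the antigen processing genes passed.

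Across regions, Ifit3 was the 1 member that rose in all 3 and Gbp4 the 1 that fell in all 3. A further pattern was shared by 15 members, which rose in the base and fell in the middle: Bst2, Dhx58, Gbp3, Ifi27, Ifi44, Ifit1, Igtp, Iigp1, Irf7, Isg15, Mx1, Oas3, Oasl2, Rtp4 and Usp18. The share of all genes with each of these patterns was not counted, so how unusual they are is not known. The difference between the genotype effects was tested as an interaction. The effect was lower in the middle than in the base for 28 of 40 members and higher for none (edgeR, adjusted p under 0.05), against 15.1% and 18.4% of all genes. By the 2-fold rule 5 members were called lower, or 12.5%, against 2.54% of all genes called lower and 4.7% in either direction. These were Oas3 (-1.50 ± 0.28, edgeR adjusted p = 4.73e-05), Rsad2 (-1.23 ± 0.094), Mx1 (-1.15 ± 0.29), Ifi44 (-1.04 ± 0.13) and Dhx58 (-1.02 ± 0.11).

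The effect was higher in the apex than in the middle for 25 members and lower for none, against 19.9% and 18.1% of all genes. Mx1 (1.59 ± 0.28), Oasl1 (1.17 ± 0.27) and Oas3 (1.04 ± 0.29) were called by the 2-fold rule, 3 members or 7.5%, against 1.67% of all genes called higher and 3.6% in either direction. Between apex and base, the effect was lower in the apex for 15 members and higher for none, against 8.51% and 16.3% of all genes. No member was called by the 2-fold rule in edgeR, DESeq2 or limma, where edgeR called 2.41% of all genes and counted 20 members at an unadjusted p under 0.05.

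**Figure D3:**
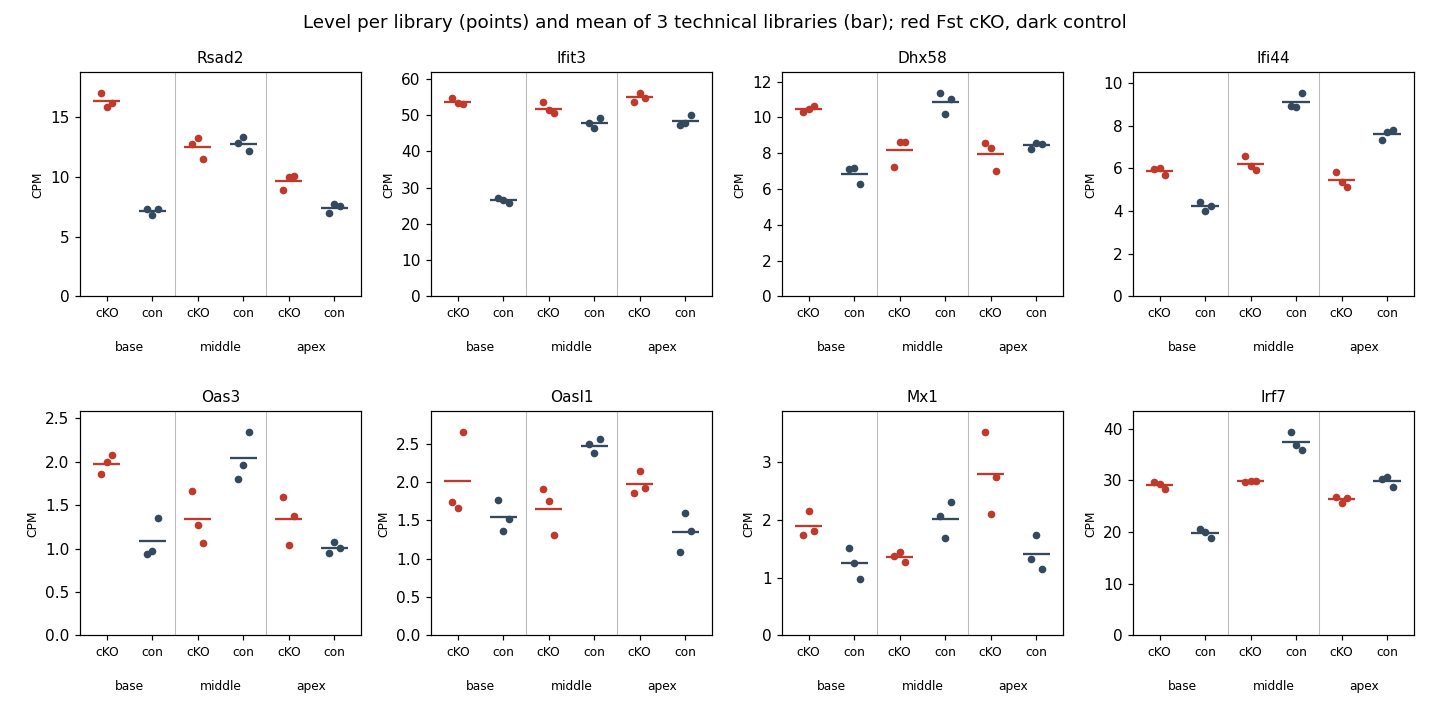
Level in CPM (vertical axis, from 0) of 8 interferon response genes in each library, by region, with Fst cKO (red) left of control (dark) and the mean of 3 technical libraries as a bar. In the base all 8 genes have a higher Fst cKO mean, and control base is the lowest pool for Ifit3, Ifi44 and Irf7 in every library.

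Set side by side over the 6 pools, the members were lowest in control base for 23 of 40 genes, where 15.5% of all genes tested were lowest there. They were highest in control middle for 15, in Fst cKO base for 13 and in Fst cKO apex for 9, where 9.06%, 17.3% and 19.7% of all genes were highest. The comparisons of regions use the same control pools as the genotype comparisons, so the values below restate those pools and are not separate evidence.

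Along the control cochlea, 27 members were higher in middle than in base and none was lower, against 15.9% and 15.6% of all genes. The median log2 change was 0.36. Ifi44 was called by the 2-fold rule (1.08 ± 0.091, edgeR adjusted p = 6.41e-13), 1 of 40, where 1.53% of all genes were called higher and 2.73% in either direction. Without control base replicate 3 there were 2 called members. Ifi44 was followed by Oas3 (0.90), Irf7 (0.88) and Ifit3 (0.83). From middle to apex the control members turned down, with 24 lower and none higher in apex, against 22.4% and 23.1% of all genes. Oas3 was called by the 2-fold rule (-1.05 ± 0.20), where 3.22% of all genes were called lower and 5.3% in either direction, and Rsad2 changed by -0.83 ± 0.072. Without control middle replicate 3 no member was called there, and without control apex replicate 2 there were 2. Control apex against base gave 15 members higher and 7 lower, against 26.7% and 25.8% of all genes, and none at 2-fold in edgeR, DESeq2 or limma, where edgeR called 5.48% of all genes and counted 23 members at an unadjusted p under 0.05.

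In Fst cKO the members were lower in middle than in base for 21 genes and higher for 1, against 22.9% and 23.5% of all genes. None reached 2-fold in edgeR, DESeq2 or limma, where edgeR called 3.26% of all genes and counted 23 members at an unadjusted p under 0.05. Rsad2 changed by -0.42 ± 0.060 and Isg15 by -0.39 ± 0.071 between those pools, while Irf7 changed by 0.0045 ± 0.040. Apex against base gave 16 lower and 7 higher, against 24.7% and 30.5%, with none at 2-fold in edgeR or limma and 1 in DESeq2. EdgeR called 6.6% of all genes there and counted 26 members at an unadjusted p under 0.05. Rsad2 (-0.80 ± 0.066) and Cxcl10 (-0.99 ± 0.19) fell most. Apex against middle gave 13 higher and 12 lower, against 25.7% and 25.2%, and Mx1 was called (1.02 ± 0.19), where 1.67% of all genes were called higher and 4.6% in either direction. Without Fst cKO apex replicate 1 or Fst cKO middle replicate 3 no member was called. The ratio of the highest to the lowest region had a median over members of 1.20 in Fst cKO and 1.37 in control.

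Genes upstream of the members showed small changes. Of 21 interferon ligand genes, 14 had 0 counts in all 18 libraries, the highest count of any was 4, and none could be tested. Of 15 genes of interferon receptors and JAK-STAT signalling, none was called by the 2-fold rule in any region. In base, middle and apex 3.03%, 2.72% and 2.04% of all genes were called. By adjusted p alone 5 rose and 5 fell in the base, and 2 rose and 3 fell in the middle. In the apex 5 rose and 2 fell. Of all genes, 16.5% rose and 19.6% fell in the base. These shares were 17.9% and 17.7% in the middle and 21.8% and 18.8% in the apex. At an unadjusted p under 0.05, edgeR counted 10, 5 and 8 of the 15.

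Changes of the receptor genes Ifnar1, Ifnar2 and Ifngr1 were small. Ifnar1 changed by 0.07, 0.10 and 0.11 in base, middle and apex, and passed in each. Ifnar2 changed by 0.05, -0.02 and 0.16 and Ifngr1 by 0.04, -0.02 and 0.07, of which only the Ifnar2 value in the apex passed. Socs1, an inhibitor of JAK kinases, fell in the base (-0.52 ± 0.18, edgeR adjusted p = 0.0262), with values of -0.13 and 0.01 in middle and apex that did not pass. Of 21 genes of nucleic acid sensing upstream of interferon, 7 rose in the base, and 1 rose and 4 fell in the middle. In the apex 4 rose and 2 fell. None reached 2-fold (unadjusted p under 0.05 in edgeR for 8, 8 and 7 in base, middle and apex). Over all genes 16.5% rose and 19.6% fell in the base, 17.9% and 17.7% in the middle, and 21.8% and 18.8% in the apex. Irf1, a transcription factor induced by type II interferon, did not pass in any region (-0.06, -0.06 and -0.10).

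Among interferon-induced genes outside the set, more rose than fell in base and apex and more fell than rose in the middle. Of 57 tested, 24 rose and 1 fell in the base, and 6 rose and 13 fell in the middle. In the apex 19 rose and 6 fell. The shares of all genes that rose and fell were 16.5% and 19.6% in the base and 17.9% and 17.7% in the middle. They were 21.8% and 18.8% in the apex. Slfn1 (1.94 ± 0.30), the exonuclease gene Isg20 (1.26 ± 0.098) and Trim30b (1.26 ± 0.36) were called in the base. In the apex Ifi44l (1.55 ± 0.38) and Slfn8 (1.20 ± 0.26) were called higher and Apol9b (-1.17 ± 0.44) lower. Their levels were low, which limits precision. In Fst cKO apex and control apex, Ifi44l averaged 0.680 and 0.232 CPM, Slfn8 1.53 and 0.673, and Apol9b 0.185 and 0.430. Slfn1 averaged 1.35 CPM in Fst cKO base and 0.349 in control base. No gene of this list was called in the middle, where edgeR counted 23 at an unadjusted p under 0.05. Of 19 genes of MHC class I and antigen presentation, 3 rose and 5 fell in the base, none rose and 9 fell in the middle, and 5 rose and 8 fell in the apex, none at 2-fold (unadjusted p under 0.05 in edgeR for 9, 11 and 15). B2m, the light chain of MHC class I, changed by 0.03, -0.18 and -0.17 and passed in middle and apex.

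Between genotypes within a region, the summed neutrophil, red blood cell and macrophage markers moved with the summed members. Between regions of a genotype they did not always do so. From control base to control apex the sum of the members rose while each of these marker sums fell. The same held from Fst cKO middle to Fst cKO apex. In the other comparisons of regions within a genotype, the sums moved in the same direction. The 10 neutrophil genes, among them S100a8, Ltf and Mpo, summed to 339.5 to 342.8 CPM in Fst cKO base and 105.4 to 108.4 CPM in control base. In the middle they summed to 255 to 256 CPM in Fst cKO and 290.1 to 291 CPM in control, and in the apex to 140.4 to 145 CPM in Fst cKO and 88.2 to 89.5 CPM in control. In the base all 10 were called higher, where 2.51% of all genes were. In the middle 7 fell with none at 2-fold, where 17.7% of all genes fell and 2.72% were called. In the apex all 10 rose with 1 called, where 21.8% of all genes rose and 1.49% were called higher. The median log2 changes of the list were 1.66, -0.27 and 0.84.

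The 7 red blood cell genes summed to 1519 to 1535 CPM in Fst cKO base and 513 to 516 CPM in control base, to 939.9 to 948 CPM in Fst cKO middle and 965 to 972 CPM in control middle, and to 873 to 888 CPM in Fst cKO apex and 359 to 365 CPM in control apex. All 7 were called higher in base and apex, against 2.51% and 1.49% of all genes. In the middle 2 rose and 4 fell, against 17.9% and 17.7% of all genes. The 12 macrophage genes summed to 208 to 217 CPM in Fst cKO base and 183 to 188 CPM in control base, to 181 to 184 CPM in Fst cKO middle and 196 to 198 CPM in control middle, and to 154 to 155 CPM in Fst cKO apex and 143 to 146 CPM in control apex. By adjusted p, 7 macrophage genes rose in the base, 6 fell and 1 rose in the middle, and 5 rose in the apex. Over all genes 16.5% rose in the base, 17.7% fell and 17.9% rose in the middle, and 21.8% rose in the apex. No gene of these 3 lists was at 0 in all libraries. Neutrophil and red blood cell sums were, like the sum of the members, higher in Fst cKO in base and apex and lower in the middle, and their part in the changes of the members was not tested.

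Genes of T and NK cells summed to 1.85 to 4.10 CPM over all libraries, and 3 of 10 passed the filter on low counts. The 9 B cell genes had a median change of -0.28 in the base, -0.42 in the middle and 0.01 in the apex, and the 8 endothelial genes one of -0.04, 0.03 and 0.03. The 8 genes of plasmacytoid dendritic cells, cells that can secrete much interferon, summed to 111 to 130 CPM over all libraries. Most of that sum came from Tcf4, with pool means of 67.5 to 80.9 CPM, and Bst2, with 26.0 to 42.4 CPM. Bst2 is itself a member of the set. Siglech had pool means of 3.04 to 4.51 CPM and Ccr9 of 0.232 to 0.732 CPM. The 6 genes tested, Bst2 among them, had medians of 0.12, -0.18 and -0.02. Markers of neighbouring tissue also differed between pools. The 6 airway epithelium genes tested had a median change of 0.18, 2.27 and 6.04 in base, middle and apex, and the 8 oligodendrocyte genes one of 0.36, -2.97 and -2.93. The part of these tissues in the changes of the members was not tested.

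**Figure D4:**
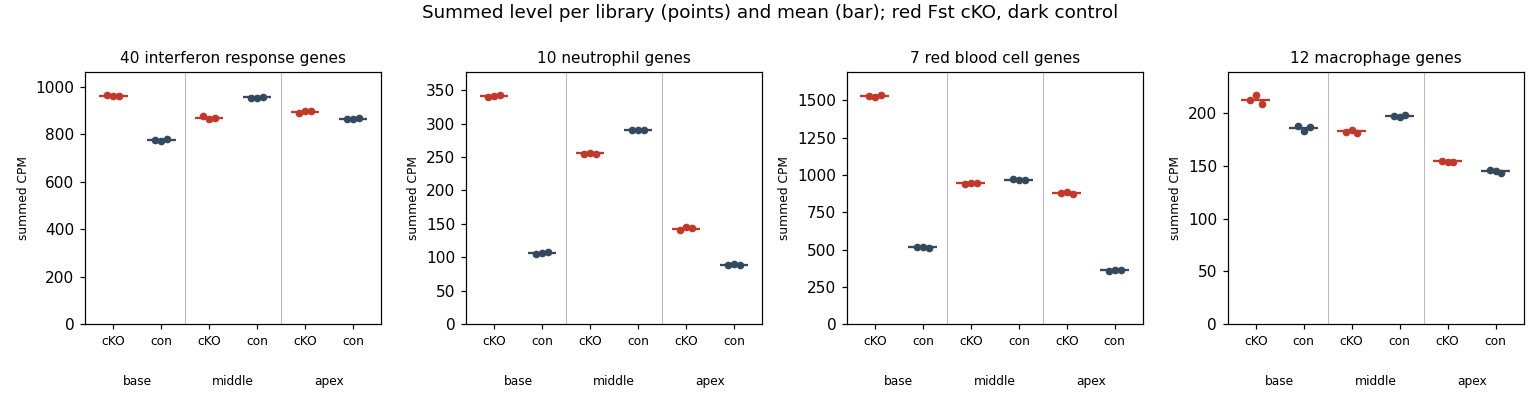
Summed level in CPM (vertical axes, from 0) of the 40 interferon response genes and of neutrophil, red blood cell and macrophage marker genes in each library, by region, with Fst cKO (red) left of control (dark) and the mean of 3 technical libraries as a bar. Each of the 4 sums is higher in Fst cKO in base and apex and lower in Fst cKO in the middle.

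A test of genotype over the regions used the counts summed per pool, 6 values in all with region in the model, and 2 residual degrees of freedom remained. Regions of a genotype may share animals, so the pools of a genotype may not be independent replicates. No member and no gene of 19038 was called in edgeR (0% of all genes). At an unadjusted p under 0.05 edgeR counted 1 member and 2087 genes, and DESeq2 called 363 genes, none of them a member. Of the 40 members, 32 had a positive change, with a median of 0.08. The common coefficient of variation was 0.116 among pools, after region and genotype in the model, and 0.00988 among technical libraries. The value among pools does not measure variation between animals.

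Gbp2b, a guanylate-binding protein also named Gbp1, was set apart because it had 0 counts in all 9 control libraries. Its counts were 24, 21 and 17 in Fst cKO base, 39, 31 and 35 in Fst cKO middle and 35, 32 and 27 in Fst cKO apex. It was detected in every Fst cKO library and in no control library. Mean levels were 0.797 ± 0.137, 1.04 ± 0.121 and 1.16 ± 0.152 CPM in Fst cKO base, middle and apex (SD, n = 3 libraries each). Against a floor of 3 counts over the control group of the region, these are at least 22.96-fold, 30.1-fold and 33.3-fold higher, given as a description with no test. The order over regions was base, middle, apex, with overlapping libraries between middle and apex and between base and middle.

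The gene lies on chromosome 3 between Gbp3 and Gbp2 (GRCm38, 142594847 to 142619179, plus strand, protein coding). Its neighbour Gbp2 stood at 10.4, 10.2 and 10.5 CPM in Fst cKO base and at 8.74, 8.74 and 9.24 CPM in control base, and its libraries overlapped between genotypes in middle and apex. Gbp2b shares 1.84% of its 50-base words with Gbp2. Of the 46583 genes, 3 had 0 counts in all 9 control libraries and at least 1 count in all 9 Fst cKO libraries: Gbp2b and the ribosomal protein pseudogenes Rps13-ps1 and Rps15a-ps8. The reverse pattern was met by 1 gene. The strain of the pools is not given, and whether Fst cKO and control differ in strain at these genes was not tested.

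**Figure D5:**
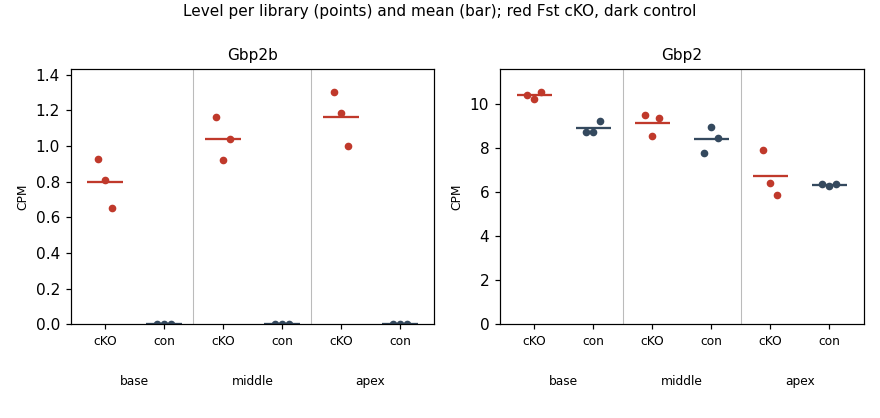
Level in CPM (vertical axes, from 0) of Gbp2b and of its neighbour Gbp2 in each library, by region, with Fst cKO (red) left of control (dark) and the mean of 3 technical libraries as a bar. Gbp2b lies between 0.654 and 1.30 CPM in the 9 Fst cKO libraries and at 0 in the 9 control libraries.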

How the data were processed

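RNA from 6 cochlear pools (base, middle and apex of Fst cKO and control mice) was prepared as 3 technical libraries each with a TruSeq v2 and Ribo-Zero kit, per the labels. STAR 2.5.2b, Cuffdiff 2.2.1 and the build GRCm38/mm10 are listed, without a role, in the submitters' processing notes; the counting step and its use of strand are not given in the sources used here. The authors deposited expected counts per gene and library, of which 89.2% to 89.9% were whole within 1e-06, and FPKM per library, with their group means. Replicate libraries were not pooled by the authors.

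Counts were rounded and tested with edgeR 4.0.16 (R 4.3.3), after filterByExpr (17901 genes) and TMM factors (0.977 to 1.03), by quasi-likelihood F tests, two-sided, on all 6 groups together (12 residual degrees of freedom). Benjamini-Hochberg adjustment was made over all genes tested; passing means an adjusted p under 0.05, and a call also needs at least 2-fold. CPM are rounded counts over the library total. The standard error is the larger of that of the fit and that of counting. Reads carry no molecular identifiers, so floors cover counting error only. Libraries of 1 pool differed by a chi-square per degree of freedom of 1.19 to 1.59 and were kept apart. Alternatives were RLE factors, library totals, no filter, a replicate block, DESeq2 1.42.0, limma 3.58.1 on log2(FPKM + 1), and leaving out each library or region. The tests were checked on simulated data. FPKM served to compare levels between genes.

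Positions came from GENCODE on GRCm38, promoters from RefSeq. Shared sequence was measured as 50-base words of transcripts. The text names all members by role, with values per library for those with the largest changes or highest levels, up to 3 called genes of each pathway list, and Ifnar1, Ifnar2, Ifngr1, Irf1, B2m and Socs1; 1 further gene of that rule is not reported here. Members and lists were chosen with earlier results of these data known. Of 236 other listed genes, 233 were found, and 2 whose symbol stands on several rows were left out. Every library column was used; the authors' group means were not.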

Additional observations from a re-analysis of the deposited data

Results flagged for a closer look

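The genotype effect of 6 members differed between regions by the interaction test at 2-fold. From base to middle the log2 change of Fst cKO over control was lower by the following differences: Oas3 -1.50, Rsad2 -1.23, Mx1 -1.15, Ifi44 -1.04 and Dhx58 -1.02. From middle to apex it was higher by 1.59 for Mx1, 1.17 for Oasl1 and 1.04 for Oas3. Mx1, Oas3 and Oasl1 had 24 to 95 counts in a library. Rsad2 rested on the base, with 17.0, 15.8 and 16.2 CPM in Fst cKO and 7.29, 6.83 and 7.28 CPM in control, while its middle libraries overlapped.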

How the results depend on the processing

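The directions of the 40 members (38 positive in base, 9 in middle, 28 in apex) were counted again under each alternative. With RLE factors, no filter, DESeq2 or the replicate block these counts did not change, with library totals the apex count was 25, and on log2(FPKM + 1) they were 36, 10 and 27. No member's change that passed the test reversed. Counts of called members moved mainly on log2(FPKM + 1), whose pseudocount of 1 shrinks the change of genes with low FPKM: 0 were called in Fst cKO against control in base and in apex, 0 in control apex against middle and middle against base, 0 in Fst cKO apex against middle, and 0 in the interactions of middle with base and of apex with middle. With library totals only, 0 were called in the apex, and DESeq2 called 1 in Fst cKO apex against base; the cause was not tested. The calls over all genes ran from 46 to 311 on log2(FPKM + 1) in the 12 comparisons, against 365 to 1182 in edgeR. On summed pools DESeq2 called 363 genes, edgeR with no filter 16, without the base pools 21 and without the middle pools 1, against 0.

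Leaving out 1 library gave 1 to 2 called members in the base, 0 to 1 in the apex, 1 to 2 in control middle against base, 0 to 2 in control apex against middle, 0 to 1 in Fst cKO apex against base and against middle, 4 to 7 in the interaction of middle with base and 2 to 3 in that of apex with middle, and 0 in the others. With the replicate number as a block, called members were 2 in the base, 0 in the middle and 1 in the apex. Within a region, same-numbered Fst cKO and control libraries did not deviate together (correlations from -0.176 to 0.0291 over 9 pairs). Over all other groups, 11 of 18 libraries correlated best with their own number. Whether the numbers link libraries across regions was not tested. The block changed no other count of called members. Pairing by replicate number was not possible on summed pools because each is 1 value, but region was in that model. Without the base pools the median of the pooled change of members was -0.01, with 19 of 40 positive, and without the middle pools 0.18, with 38 positive. Low counts limit the precision for members such as Mx1, Oas3, Oasl1, Cxcl10 and Gbp2b, and each group has 1 pool at any depth.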
